A study of Mus musculus with 8 samples.

Results

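Rab GTPases are small membrane-bound switches that mark the compartments of vesicle traffic. An exchange factor (GEF) loads a Rab with GTP, the loaded Rab recruits effectors that move, tether or fuse vesicles, and an activating protein (GAP) returns it to the GDP form, which the escort protein GDI lifts off the membrane. In adipocytes this machinery carries the glucose transporter GLUT4 to the cell surface, with Rab10 and its GAP Tbc1d4 as the best known pair, and Rab18 sits on lipid droplets. The mouse genes taken here are all those whose symbol is Rab, a number and at most 1 letter. RefSeq lists 59 of them, and 57 were on the arrays, among 20668 named genes. Rab36 and Rab44 had no probe named for them.

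The RNA came from mouse 3T3-L1 cells, a preadipocyte line kept in adipogenic medium for 1 week. They received culture supernatant, diluted 2-fold, of human HL-60 cells that had been made macrophage-like with 30 nM of the phorbol ester PMA over 5 days. The HL-60 cells carried either a knockdown of the deubiquitinase USP2 (called KD supernatant here) or a mock vector (control supernatant). The 4 groups were KD supernatant for 6 h, control supernatant for 6 h, KD supernatant for 3 h and control supernatant for 3 h, with 2 one-colour Agilent arrays in each. The knockdown itself lies in the human cells, whose RNA was not measured, so the targeted gene could not be checked. The labels call the 2 samples of a group biological replicates without saying whether the supernatants were prepared separately, so a p-value covers the spread of these 8 samples and no more. All 8 arrays shared 1 slide, on which supernatant followed the column and time the row. An effect of the supernatant cannot be told apart from one of the column, nor an effect of time from one of the row.

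Signals are given as levels in log2 units relative to the 75th percentile of the array, so that 0 is the level below which 75% of its spots lie. Between 50.7% and 55.9% of the spots of an array were well above background. The adipocyte identity was partial: of 20 adipocyte markers 11 were above background on all 8 arrays, among them Pparg, Cebpa, Fabp4 and Plin4, while 6, namely Adipoq, Cd36, Cfd, Cidec, Lep and Slc2a4 (the gene of GLUT4), were above it on none. All 12 preadipocyte and fibroblast markers were above background on all 8 arrays. So were 6 of 11 macrophage and leukocyte markers and 4 of 10 endothelial and muscle markers, and the pan-leukocyte gene Ptprc and the macrophage gene Adgre1 were above it on none. The summed linear signal of the 13 tested adipocyte markers, in multiples of the 75th percentile, was 212 to 222 with KD and 221 to 231 with control supernatant at 6 h, and 257 to 264 with KD and 263.5 to 264.1 with control supernatant at 3 h. That of the 6 leukocyte markers was 38.4 to 41.3 with KD and 38.1 to 43.8 with control supernatant at 6 h, and 53.6 to 55.6 with KD and 43.2 to 45.6 with control supernatant at 3 h. The part of these shifts in the results was not tested, and in RNA of a whole culture fewer cells of a type and less RNA per cell cannot be told apart.

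Most Rab genes were expressed. Of the 57, 47 were well above background on all 8 arrays, 9 on 1 to 7 arrays and 1, Rab9b, on none. Both arrays of a group were above background for 48 genes with KD and 50 with control supernatant at 6 h, and for 49 with KD and 48 with control supernatant at 3 h. A gene entered the tests if this held in at least 1 group, which left 51. The 6 that did not enter were Rab9b, Rab17, Rab19, Rab26, Rab27a and Rab39. Among the 51, Rab15 was above background on 5 arrays, Rab25 on 3, Rab37 on 7 and Rab38 on 2. The remaining 47 repeated closely: the 2 arrays of a group differed by a median of 0.08 with KD and 0.12 with control supernatant at 6 h, and by 0.07 with KD and 0.08 with control supernatant at 3 h, all in log2 units. The widest gaps were 0.87 for Rab31 with KD supernatant at 6 h and 0.80 for Rab32 with control supernatant at 6 h.

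Upstream sequences of 5 members are shown because the results turn on them: Rab3a and Rab20 differed between the supernatants, and Rab5a, Rab35 and Rab42 had wide differences between 6 h and 3 h. Rab27b, which also differed between the supernatants, is not among those shown. Each sequence is the 250 bases before the outermost annotated start, read on the gene's own strand from RefSeq's table for GRCm38.p6. Capitals mark a match, on either strand, to the CCAAT box, the TATA box (TATAAA), the E-box (CACGTG), the GC box (GGGCGG) or the cyclic AMP response element CRE (TGACGTCA). The AP-1 motif (TGANTCA) and a paired STAT motif (TTCNNNGAA) were searched as well and had no match in these windows, and no motif contains another.
Rab3a, chr8:70754453-70754702, plus strand: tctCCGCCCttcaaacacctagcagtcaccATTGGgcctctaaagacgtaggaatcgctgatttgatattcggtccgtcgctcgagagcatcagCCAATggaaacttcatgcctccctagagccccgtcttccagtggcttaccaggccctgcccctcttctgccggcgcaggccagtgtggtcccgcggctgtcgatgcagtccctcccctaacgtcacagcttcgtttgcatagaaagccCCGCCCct
Rab20, chr8:11478641-11478890, minus strand: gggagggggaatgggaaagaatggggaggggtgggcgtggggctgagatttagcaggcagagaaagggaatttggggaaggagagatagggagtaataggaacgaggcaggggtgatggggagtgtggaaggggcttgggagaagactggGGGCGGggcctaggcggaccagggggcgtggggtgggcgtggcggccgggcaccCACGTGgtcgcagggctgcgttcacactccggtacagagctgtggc
Rab5a, chr17:53478984-53479233, plus strand: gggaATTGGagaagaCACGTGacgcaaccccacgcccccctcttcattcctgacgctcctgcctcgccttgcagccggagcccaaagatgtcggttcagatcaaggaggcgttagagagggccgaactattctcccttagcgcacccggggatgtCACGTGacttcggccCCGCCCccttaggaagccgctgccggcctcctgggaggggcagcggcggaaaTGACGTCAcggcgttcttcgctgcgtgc
Rab35, chr5:115631737-115631986, plus strand: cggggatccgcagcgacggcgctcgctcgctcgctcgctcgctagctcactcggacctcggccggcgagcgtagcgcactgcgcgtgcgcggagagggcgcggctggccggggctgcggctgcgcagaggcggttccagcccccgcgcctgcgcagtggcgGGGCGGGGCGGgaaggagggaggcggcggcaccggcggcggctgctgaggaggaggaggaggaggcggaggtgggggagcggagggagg
Rab42, chr4:132303357-132303606, minus strand: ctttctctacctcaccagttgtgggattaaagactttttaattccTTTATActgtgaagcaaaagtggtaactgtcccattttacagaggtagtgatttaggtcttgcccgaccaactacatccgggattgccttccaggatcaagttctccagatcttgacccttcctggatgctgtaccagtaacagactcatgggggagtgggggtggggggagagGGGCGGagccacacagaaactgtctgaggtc
The GC box was in all 5 windows, and Rab42 was the only one of the 5 with a TATA box. Rab5a held 2 E-boxes and a CRE, Rab20 an E-box, and Rab3a 2 CCAAT boxes. Over windows of the same length, 66.7% of 60 Rab promoters (48 of the 57 genes had one) held a GC box, against 32.7% of all 32851 promoters in the table. The other shares, Rab promoters before all promoters, were 40% and 33.8% for the CCAAT box, 8.33% and 6.02% for the E-box, 8.33% and 7.02% for the STAT pair, 6.67% and 12.4% for the TATA box, 3.33% and 6.75% for AP-1, and 3.33% and 1.55% for CRE. A match describes letters in a window and not a bound site.

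The first question was whether the Rab genes of 3T3-L1 cells differed between KD and control supernatant. Few did: Rab3a was lower at both times, and Rab27b and Rab20 were higher at 6 h. After 3 h, limma called 1 of the 51 tested Rab genes at an adjusted p under 0.05, lower with KD supernatant, against 0.244% of the 25799 genes and unnamed probes tested (0.225% higher and 0.0194% lower). After 6 h it called 3, 2 higher and 1 lower, against 2.3% of all (1.6% and 0.698%). Averaged over both times the same 3 genes were called, against 3.13% of all (2.16% higher and 0.965% lower). Medians over the 51 were 0.03 at 3 h and 0.09 at 6 h, beside -0.02 and 0.00 over everything tested. The plot of the 51 genes by array shows this range, with rows that differ more by time than by supernatant.

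**Figure D1:**
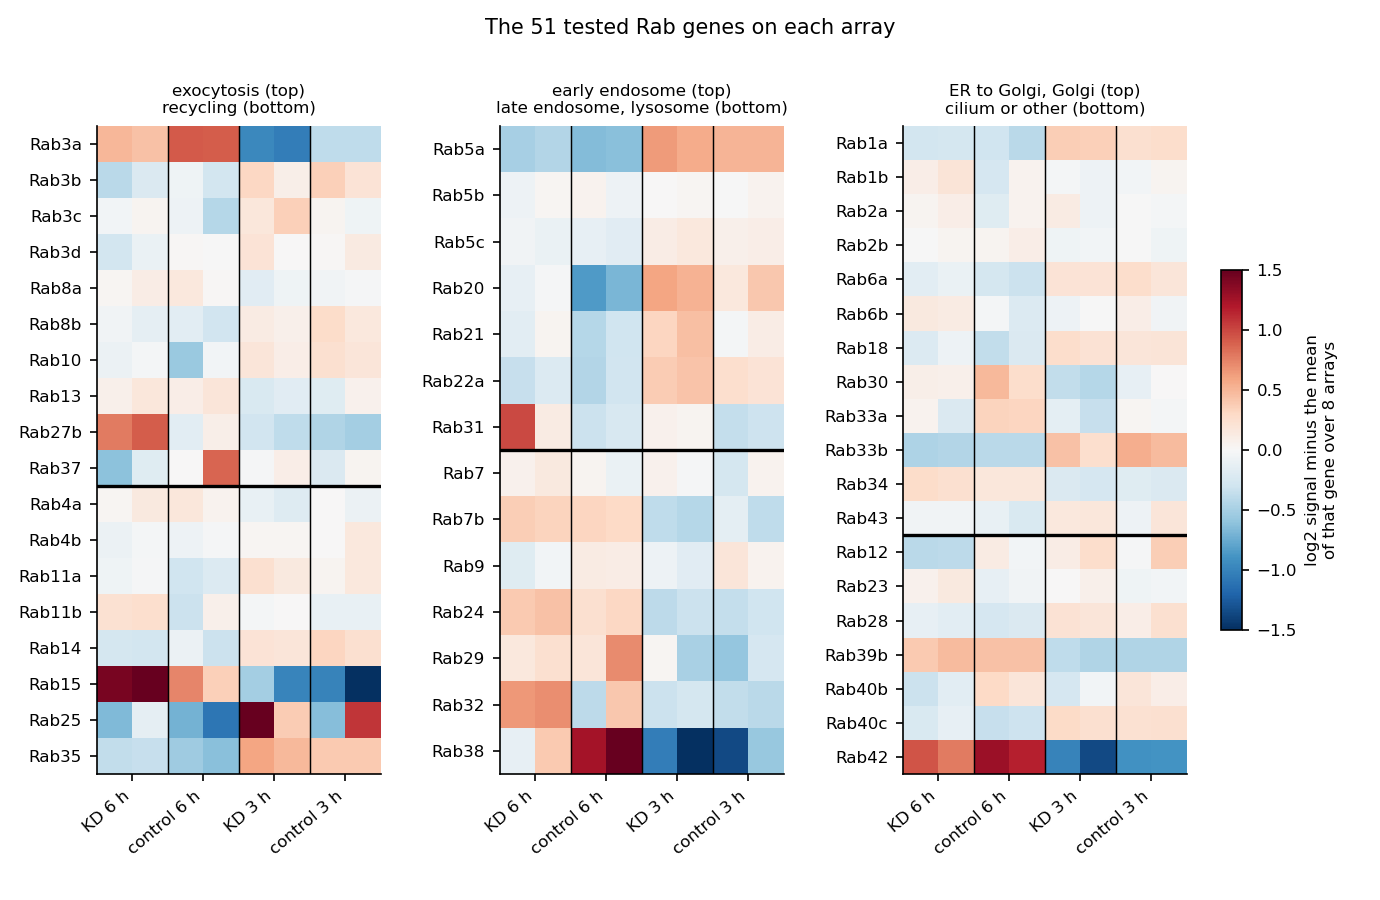
Each row is 1 of the 51 tested Rab genes and each column 1 array, in pairs for KD supernatant 6 h, control supernatant 6 h, KD supernatant 3 h and control supernatant 3 h; colour gives the log2 signal minus the mean of that gene over the 8 arrays, and differences past 1.5 take the end colours. Rab3a is high at 6 h and low at 3 h, and within each time it is lower with KD supernatant, while Rab27b stands out on both KD arrays at 6 h.

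Rab3a, which acts in the last steps of regulated exocytosis of secretory vesicles, gave the clearest difference. Its level was 1.99 and 1.94 with KD supernatant at 6 h, against 2.42 and 2.40 with control supernatant. At 3 h it was 0.52 and 0.46 with KD supernatant, against 1.12 and 1.11 with control supernatant. The groups did not overlap at either time, and the distance between them was many times the gap between the 2 arrays of a group. Rab3a fell by 0.45 ± 0.060 log2 units at 6 h (standard error of the model; adjusted p = 0.0278) and by 0.63 ± 0.060 at 3 h (adjusted p = 0.0373). Averaged over the times it fell by 0.54 ± 0.042 (adjusted p = 0.00624). The difference of the 2 effects, 6 h minus 3 h, was 0.18 ± 0.085 and missed the threshold (adjusted p = 0.605). Scaled by the array median the 6 h value was -0.26 (adjusted p = 0.102) and the 3 h value -0.55 (adjusted p = 0.0948), and leaving out any 1 of the 8 arrays lost the 3 h call (adjusted p of 0.0594 to 0.289). The 6 h call was lost without any 1 array other than the second control array at 6 h (adjusted p of 0.0563 to 0.117), while the average was called each time.

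None of the relatives of Rab3a was called. Rab3b stood at -3.17 and -2.97 with KD and -2.83 and -3.04 with control supernatant at 6 h, and at -2.44 and -2.67 with KD and -2.40 and -2.56 with control supernatant at 3 h. Rab3c was 3.48 and 3.56 with KD and 3.44 and 3.09 with control supernatant at 6 h, and 3.69 and 3.87 with KD and 3.55 and 3.45 with control supernatant at 3 h. Of 3 probes for Rab3c, 2 passed the background filter, and these values are from the brighter of them. Whether probes of this family also bind RNA of the paralogs was not tested. Rab3d was at -0.28 and -0.11 with KD and 0.01 and -0.01 with control supernatant at 6 h, and at 0.20 and -0.01 with KD and 0.01 and 0.12 with control supernatant at 3 h. Rab3b overlapped between supernatants at both times, Rab3c was higher on both KD arrays each time, and Rab3d was lower on both KD arrays at 6 h alone. The differences were -0.14 ± 0.13 for Rab3b, 0.26 ± 0.13 for Rab3c and -0.19 ± 0.10 for Rab3d at 6 h, none past the threshold (adjusted p = 0.581, 0.352 and 0.357).

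Rab27b, which with Rab27a docks secretory granules and exosome-bearing endosomes at the plasma membrane, was higher with KD supernatant at 6 h. Its level was -0.51 and -0.39 with KD supernatant at 6 h, against -1.45 and -1.20 with control supernatant. At 3 h it was -1.58 and -1.67 with KD supernatant, against -1.74 and -1.81 with control supernatant. The supernatants did not overlap at either time, but they lay far apart only at 6 h. Rab27b rose by 0.88 ± 0.10 log2 units at 6 h (adjusted p = 0.0215), whereas the 3 h difference was 0.15 ± 0.10 (adjusted p = 0.721). The difference of the effects, 0.73 ± 0.15, did not pass the test over all genes (adjusted p = 0.371). A second probe of Rab27b gave -3.49 and -3.60 with KD and -4.54 and -4.56 with control supernatant at 6 h. It too rose by 1.00 ± 0.093 (adjusted p = 0.0124 over the probes tested). The call at 6 h was lost without either KD array at 6 h or any 1 array at 3 h, with values of 0.81 to 0.94 (adjusted p of 0.0645 to 0.0889). Rab27a was not tested, since 2 scattered arrays were above background: it stood at -4.27 and -4.58 with KD and -6.60 and -0.95 with control supernatant at 6 h, and at -6.18 and -5.79 with KD and -6.77 and -5.82 with control supernatant at 3 h.

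Rab20, a Rab of early endosomes and maturing phagosomes, was also higher with KD supernatant at 6 h. It stood at -2.21 and -2.10 with KD supernatant at 6 h, against -2.94 and -2.77 with control supernatant. At 3 h it was at -1.50 and -1.56 with KD supernatant, against -1.93 and -1.68 with control supernatant. The groups did not overlap at either time. Rab20 rose by 0.70 ± 0.11 log2 units at 6 h (adjusted p = 0.0421), the 3 h difference was 0.28 ± 0.11 (adjusted p = 0.470), and the average was 0.49 ± 0.078 (adjusted p = 0.0369). With another background correction, normexp, the 6 h value of Rab20 was 0.37 (adjusted p = 0.0787), and leaving out any 1 array other than the second control array at 6 h lost the call (adjusted p of 0.0631 to 0.161). The average was lost in the same cases (adjusted p of 0.0590 to 0.148) and with normexp (0.27, adjusted p = 0.0642).

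**Figure D2:**
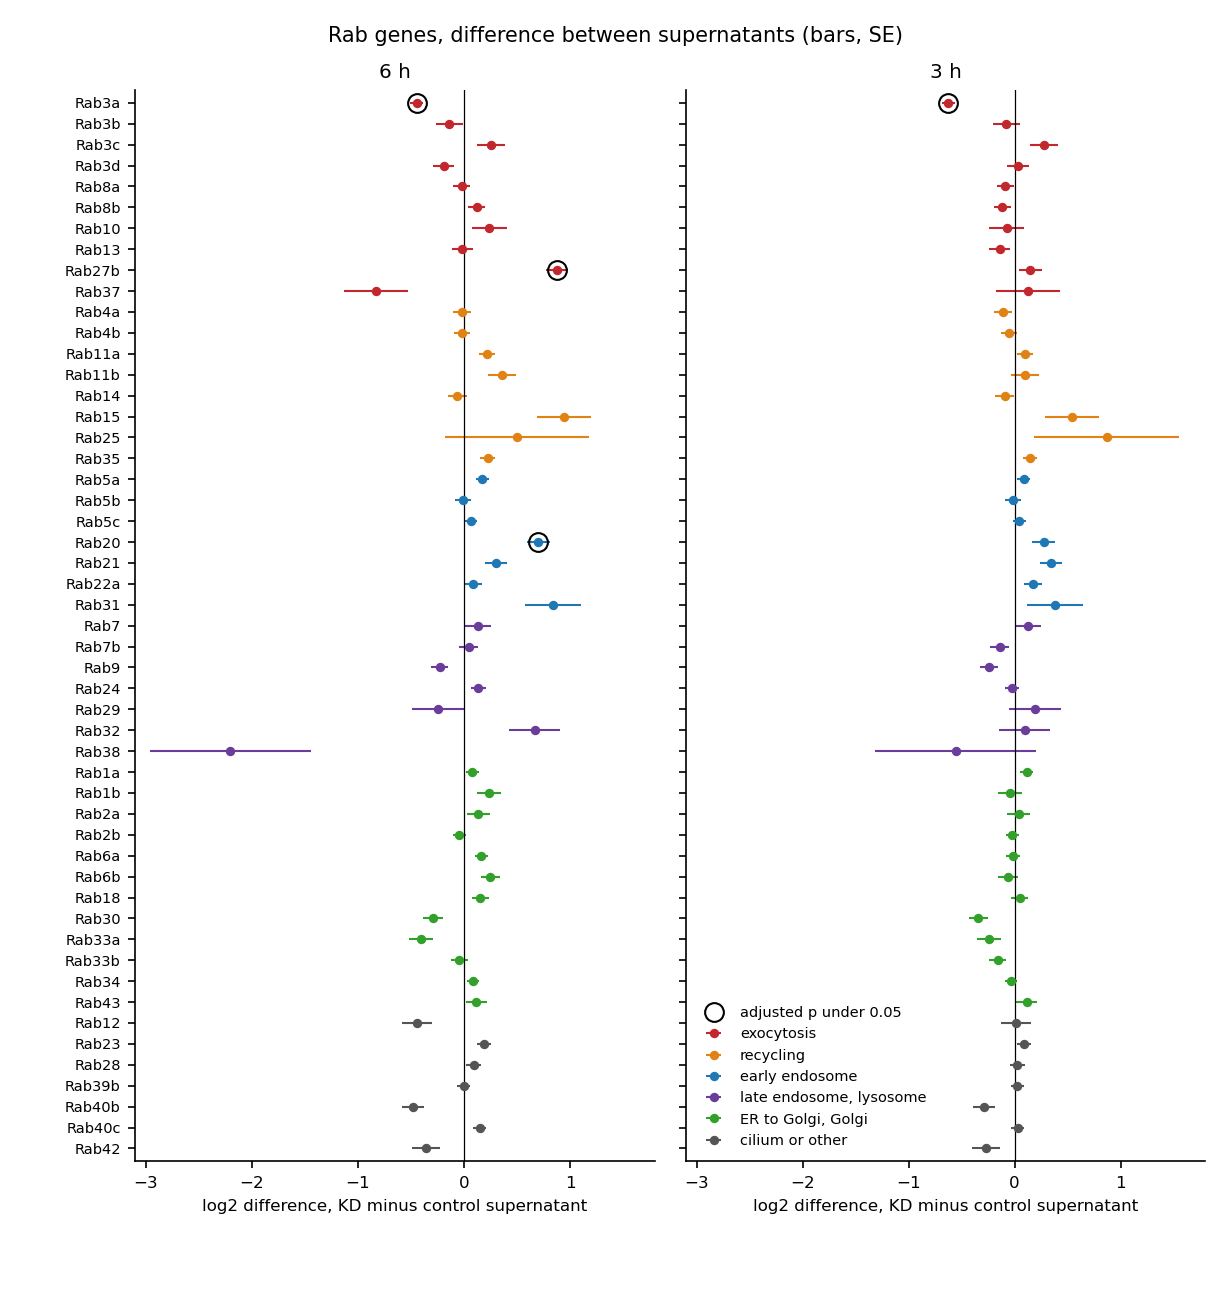
Points give the log2 difference, KD minus control supernatant, at 6 h (left) and 3 h (right) for the 51 tested Rab genes, coloured by role, with bars of 1 standard error of the limma model (2 arrays per group); circles mark an adjusted p under 0.05. Circled are Rab3a, Rab27b and Rab20 at 6 h and Rab3a at 3 h, and the long bars belong to genes near background or with discordant arrays, such as Rab38, Rab25 and Rab31.

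A few members came close to the threshold. Rab40b, which has a SOCS box and serves a ubiquitin ligase, was at -2.17 and -2.00 with KD and -1.55 and -1.66 with control supernatant at 6 h, and at -2.09 and -1.88 with KD and -1.66 and -1.74 with control supernatant at 3 h. Its average difference was -0.38 ± 0.074 (adjusted p = 0.0604). The Golgi Rab Rab30 was at -0.32 and -0.33 with KD and 0.08 and -0.14 with control supernatant at 6 h, and at -0.78 and -0.83 with KD and -0.52 and -0.41 with control supernatant at 3 h. Both genes were lower on every KD array than on every control array of the same time, and the average difference of Rab30 was -0.32 ± 0.065 (adjusted p = 0.0703). Rab21, which moves integrins through early endosomes, was at -0.41 and -0.22 with KD and -0.69 and -0.55 with control supernatant at 6 h, and at 0.07 and 0.19 with KD and -0.28 and -0.15 with control supernatant at 3 h. Its average difference was 0.32 ± 0.074 (adjusted p = 0.0891), and it was higher on every KD array of a time. Rab9, which returns mannose-6-phosphate receptors from late endosomes, was at 3.95 and 4.09 with KD and 4.26 and 4.25 with control supernatant at 6 h, and at 4.05 and 3.96 with KD and 4.31 and 4.19 with control supernatant at 3 h. It was lower on all 4 KD arrays than on all 4 control arrays, with an average difference of -0.24 ± 0.057 (adjusted p = 0.100).

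Rab31, Rab15 and Rab38 had wide differences that were not called. This Rab of the trans-Golgi network and endosomes, which takes part in GLUT4 retention in adipocytes, was at 3.81 and 2.93 with KD and 2.49 and 2.58 with control supernatant at 6 h, and at 2.88 and 2.85 with KD and 2.46 and 2.50 with control supernatant at 3 h. All KD arrays were above all control arrays, but the 2 KD arrays at 6 h lay 0.87 apart. The 6 h difference was 0.84 ± 0.26 (adjusted p = 0.182). Rab15, a recycling Rab near background, was at -3.16 and -3.02 with KD and -3.85 and -4.22 with control supernatant at 6 h, and its difference of 0.94 ± 0.25 missed the threshold too (adjusted p = 0.140). Rab38, which serves melanosomes and related organelles, was at -5.50 and -4.98 with KD and -4.13 and -1.95 with control supernatant at 6 h, and at -6.42 and -7.37 with KD and -6.74 and -5.94 with control supernatant at 3 h. Only its control arrays at 6 h were above background, and the brighter of them lay in a bright patch of the slide. Its difference at 6 h was not called (adjusted p = 0.208). Rab37, of mast cell granules, was at -4.99 and -4.56 with KD and -4.38 and -3.51 with control supernatant at 6 h, and at -4.40 and -4.28 with KD and -4.60 and -4.34 with control supernatant at 3 h. It was lower on both KD arrays at 6 h and overlapped at 3 h (-0.83 ± 0.30 at 6 h, adjusted p = 0.226).

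For most members the interval of the difference was narrow. The 95% interval of KD minus control stayed within a 2-fold change either way for 44 of 51 Rab genes at 6 h and 47 at 3 h, and within 0.5 log2 units for 31 and 36. Among them were the early endosome Rabs Rab5b, with -0.01 ± 0.075 at 6 h, and Rab5c, with 0.07 ± 0.060, and the late endosome Rab Rab7, with 0.13 ± 0.12. The GLUT4-vesicle Rab Rab10 had 0.24 ± 0.16. These intervals leave out the choice of scaling. Scaled by the array median, the 6 h median over the 51 Rab genes was 0.27 in place of 0.09, and 40 in place of 30 were above 0. At an unadjusted p under 0.05 the 6 h comparison held 22 Rab genes, 13 higher and 9 lower, against 19.3% of all features, and the 3 h comparison 6, against 10.6%. That 6 h number rests on the pooled spread of all groups: it was 8 in a fit of the 6 h arrays alone, where 11.8% of all features had such a p. The KD and control arrays did not overlap for 27 Rab genes that were higher and 11 that were lower at 6 h, where 26% and 21.6% of all features did so. At 3 h these numbers were 16 and 13, beside 20.5% and 26.8%. No Rab gene was called for a difference between the 6 h and 3 h effects, where limma called 0% of all features, and 2, Rab27b and Rab20, had an unadjusted p under 0.05, beside 8.81% of all.

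Few partners of the Rab proteins were called between the supernatants. So were few of all features: 0.244% at 3 h, 2.3% at 6 h and 3.13% averaged over the times. At such shares, lists this short hold few calls or none. None of the 36 tested exchange factors was called at 3 h and 1 was at 6 h. This was Rin1, an exchange factor of Rab5 proteins, at 1.04 and 1.03 with KD and 0.48 and 0.40 with control supernatant at 6 h, and at -0.33 and -0.41 with KD and -0.54 and -0.40 with control supernatant at 3 h. Rin1 rose by 0.59 ± 0.076 at 6 h (adjusted p = 0.0247), and its arrays at 3 h overlapped. Rab3il1, an exchange factor acting on Rab3a and Rab8, was at 2.64 and 2.54 with KD and 3.04 and 3.28 with control supernatant at 6 h, and at 2.61 and 2.52 with KD and 2.88 and 2.98 with control supernatant at 3 h. It was lower on every KD array and fell by 0.47 ± 0.073 on average (adjusted p = 0.0353). Of 37 tested effectors none was called at 3 h or 6 h, and Micall2, which binds Rab13 and Rab8, rose by 0.35 ± 0.055 on average (adjusted p = 0.0353). None of 34 tested GAPs, 11 genes of prenylation, escort and GDI, or 9 genes of GLUT4 vesicles was called by limma in any of these comparisons. At an unadjusted p under 0.05 the 6 h comparison held 11 GAPs, 1 prenylation or GDI gene, 2 GLUT4 vesicle genes, 6 exchange factors and 9 effectors, where 19.3% of all features were, and the 3 h comparison 9, 0, 1, 3 and 6, where 10.6% were. Plin4, a lipid droplet coat gene among the adipocyte markers, fell by 0.68 ± 0.082 at 6 h (adjusted p = 0.0215), and it was the only marker of the 4 cell type lists called at 3 h or 6 h. Averaged over the times the monocyte marker Cd14 was called too, 0.47 ± 0.058 higher with KD supernatant (adjusted p = 0.0168). Its list mostly went the other way: of the 6 tested leukocyte markers 2 were above 0 on average (median -0.20), and 1 at 6 h (median -0.27). The part of Cd14 in the results was not tested.

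**Figure D3:**
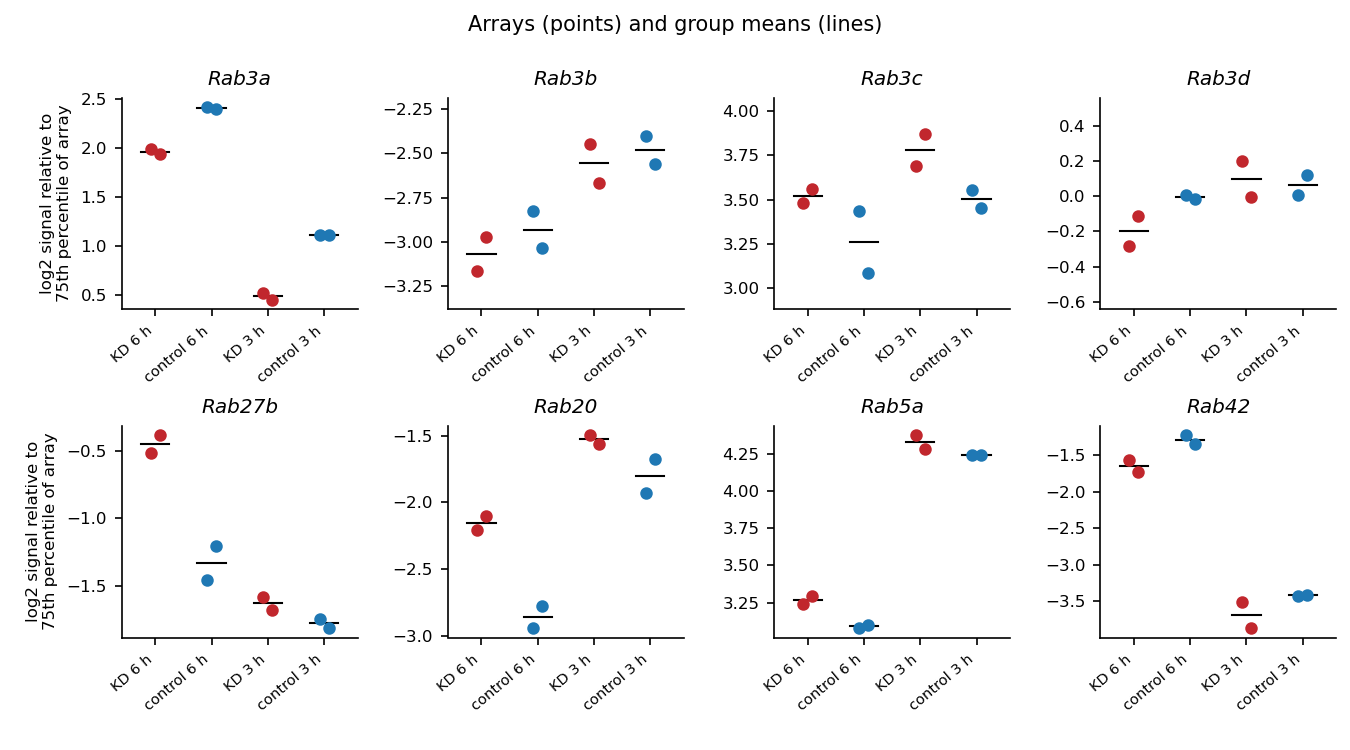
Levels of 8 Rab genes in log2 units relative to the 75th percentile of the array, with points for the 2 arrays of a group (red, KD supernatant; blue, control supernatant), lines for group means, and groups KD 6 h, control 6 h, KD 3 h and control 3 h from left to right; each panel has its own scale. Rab3a is below its control at both times, Rab27b and Rab20 are above it at 6 h, and Rab5a and Rab42 move with time in opposite directions.

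The second question was how Rab genes differed between 6 h and 3 h of exposure. With KD supernatant, 26 of 51 were called, 11 higher and 15 lower at 6 h, against 39.9% of all features (17.7% higher and 22.2% lower). With control supernatant, 27 were called, 11 higher and 16 lower, against 39.9% again (16.3% and 23.6%). The 2 comparisons share no arrays. In both, 9 genes were higher and 14 lower, none was called in opposite directions, and 44 of 51 had the same sign. Shared calls and signs were not set beside those of all features, so they are not read as particular to the Rab genes. The higher calls include Rab15 in both supernatants and Rab38 with control supernatant. Both genes entered the tests only through 6 h groups, so their calls support nothing about time. The direction of small changes depends on the scaling. The median over all features was -0.11 with KD and -0.07 with control supernatant, -0.20 and -0.28 when arrays were scaled by their median, and 0.05 and -0.01 without scaling. Without scaling, 10 Rab genes were higher and 3 lower with KD supernatant, and 7 and 5 with control supernatant. With median scaling the calls were 10 higher and 16 lower with KD supernatant, and 7 and 20 with control supernatant. None of the Rab genes called in the comparisons of time changed its sign under any of these scalings.

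**Figure D4:**
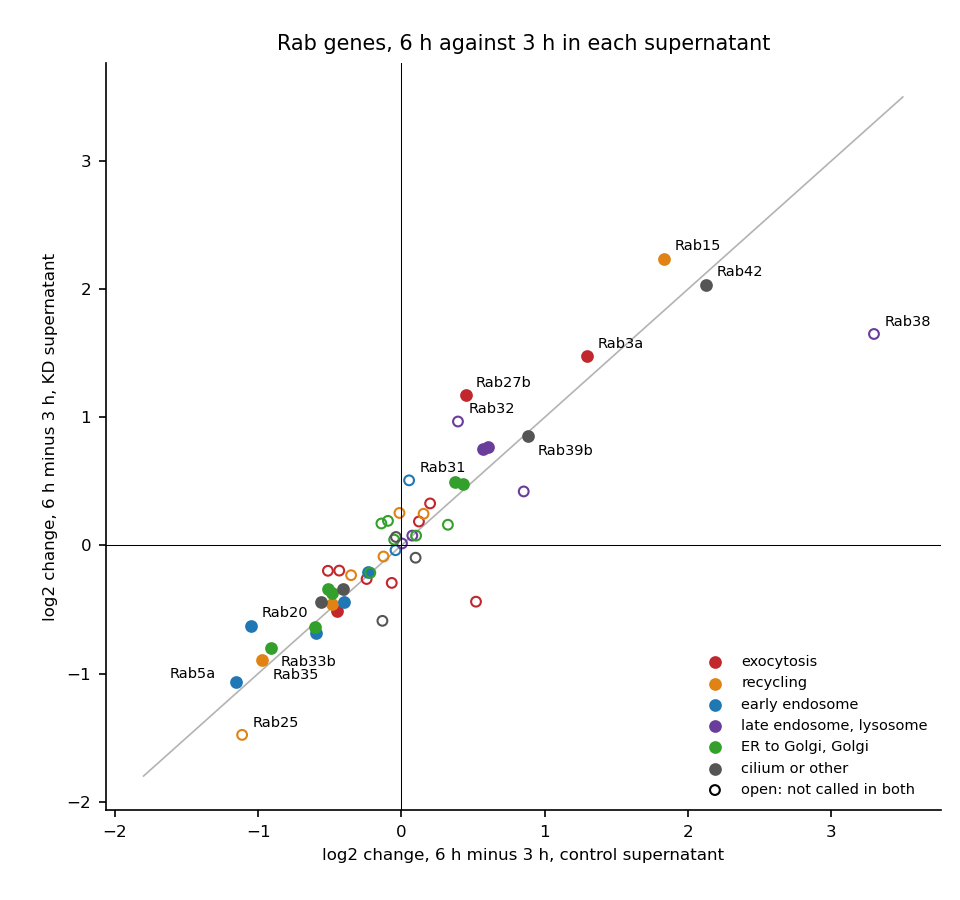
Each point is 1 of the 51 tested Rab genes, with the log2 difference, 6 h minus 3 h, in KD supernatant on the vertical axis and in control supernatant on the horizontal axis, coloured by role; filled points were called in the same direction in both, and the grey line marks equal change. Rab42 and Rab3a lie far up the line and Rab5a far down it, while Rab27b lies above the line. Rab15, also far up the line, and Rab38, far to the right, entered the tests only through 6 h groups, so their places support nothing about time.

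Exocytosis Rabs moved both ways with time. Rab3a, was higher at 6 h by 1.47 ± 0.060 with KD and 1.29 ± 0.060 with control supernatant (adjusted p = 0.000116 and 0.000121). Rab27b was higher by 1.17 ± 0.10 with KD and 0.45 ± 0.10 with control supernatant (adjusted p = 0.000651 and 0.0189). Its second probe disagreed for control supernatant, with -0.18 ± 0.093 (adjusted p = 0.177). Rab3b was lower by 0.51 ± 0.13 and 0.45 ± 0.13 (adjusted p = 0.0239 and 0.0363). Rab13, a Rab of junction and surface delivery, was at 0.55 and 0.64 with KD and 0.57 and 0.66 with control supernatant at 6 h, and at 0.24 and 0.30 with KD and 0.29 and 0.53 with control supernatant at 3 h, and was called with KD supernatant alone (0.33 ± 0.098, adjusted p = 0.0435). Rab8b, a carrier Rab between the Golgi and the surface, was at 1.28 and 1.20 with KD and 1.18 and 1.05 with control supernatant at 6 h, and at 1.46 and 1.42 with KD and 1.61 and 1.49 with control supernatant at 3 h. It was called with control supernatant alone (-0.43 ± 0.080, adjusted p = 0.00792), and the difference between supernatants was not called for either gene (adjusted p = 0.781 for Rab13 and 0.610 for Rab8b).

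Other exocytosis Rabs were not called. Rab8a, the close relative of Rab8b, was at 2.09 and 2.17 with KD and 2.22 and 2.09 with control supernatant at 6 h, and at 1.89 and 2.00 with KD and 2.01 and 2.05 with control supernatant at 3 h. Rab10 was at 2.93 and 2.99 with KD and 2.46 and 2.97 with control supernatant at 6 h, and at 3.19 and 3.12 with KD and 3.26 and 3.20 with control supernatant at 3 h. Its first control array at 6 h stood apart from the rest of its group. The second probe of Rab10 was called lower at 6 h in both supernatants, by 0.45 ± 0.068 with KD and 0.50 ± 0.068 with control supernatant, where the brighter one gave -0.20 ± 0.16 and -0.51 ± 0.16 (adjusted p = 0.375 and 0.0517). Rab3c, Rab3d and Rab37 were not called, and Rab26, a Rab of secretory granules, was above background on 1 array and not tested.

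Most early endosome Rabs were lower at 6 h. Of 7 tested, 5 fell with each supernatant, where 22.2% of all features fell with KD and 23.6% with control supernatant, and none rose. Rab5b and Rab31 were not called, and the value of Rab31 with KD supernatant was 0.51. Rab5a, which drives fusion of early endosomes, was at 3.24 and 3.29 with KD and 3.08 and 3.10 with control supernatant at 6 h, and at 4.38 and 4.29 with KD and 4.25 and 4.24 with control supernatant at 3 h. It fell by 1.07 ± 0.063 with KD and 1.16 ± 0.063 with control supernatant (adjusted p = 0.000207 and 0.000160), and its second probe fell by 0.91 and 1.06. The values of its paralogs were smaller, although the difference between paralogs was not tested. Rab5c, at 4.61 and 4.56 with KD and 4.54 and 4.50 with control supernatant at 6 h and 4.77 and 4.82 with KD and 4.74 and 4.76 with control supernatant at 3 h, fell by 0.21 ± 0.060 and 0.23 ± 0.060. The size of the Rab5c change depended on the processing. Over the alternative runs it ranged from -0.30 to -0.05 with KD and from -0.43 to -0.05 with control supernatant. Rab5b, at 2.98 and 3.09 with KD and 3.11 and 2.98 with control supernatant at 6 h and 3.07 and 3.09 with KD and 3.06 and 3.12 with control supernatant at 3 h, overlapped between the times (adjusted p = 0.720 and 0.708). Rab22a, which sorts cargo between early and recycling endosomes, was at 1.85 and 1.98 with KD and 1.76 and 1.90 with control supernatant at 6 h, and at 2.57 and 2.62 with KD and 2.45 and 2.40 with control supernatant at 3 h. The 6 h arrays of Rab22a lay below all of its 3 h arrays, and it fell by 0.68 ± 0.082 and 0.60 ± 0.082. Rab20 fell by 0.63 ± 0.11 with KD and 1.05 ± 0.11 with control supernatant, and Rab21 by 0.44 ± 0.11 and 0.40 ± 0.11. With quantile normalization, and likewise with normexp, 4 of the 7 early endosome Rabs were called lower in each supernatant. Without scaling, 1 of the 7 was called lower with KD and 2 with control supernatant. These were Rab5a in both supernatants and Rab20 with control supernatant.

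Recycling Rabs were mixed. Rab35, which returns cargo from endosomes to the plasma membrane, was at 3.83 and 3.85 with KD and 3.66 and 3.57 with control supernatant at 6 h, and at 4.79 and 4.68 with KD and 4.59 and 4.59 with control supernatant at 3 h. It fell by 0.90 ± 0.068 and 0.97 ± 0.068 (adjusted p = 0.000400 and 0.000303). Rab14, which works between the Golgi and endosomes, was at 4.54 and 4.53 with KD and 4.72 and 4.48 with control supernatant at 6 h, and at 5.00 and 4.98 with KD and 5.13 and 5.04 with control supernatant at 3 h. It was lower at 6 h in both supernatants, and Rab14 fell by 0.46 ± 0.092 and 0.49 ± 0.092. Rab11a, the Rab of the slow recycling route, was at 3.14 and 3.19 with KD and 2.90 and 3.00 with control supernatant at 6 h, and at 3.45 and 3.35 with KD and 3.24 and 3.36 with control supernatant at 3 h. The 6 h arrays were the lower ones with both supernatants, but the change was called with control supernatant alone (-0.35 ± 0.077, adjusted p = 0.0149; -0.23 ± 0.077, adjusted p = 0.0593 with KD supernatant). Rab15 was at -5.09 and -5.57 with KD and -5.58 and -6.15 with control supernatant at 3 h, and thus higher at 6 h, by 2.24 ± 0.25 with KD supernatant (adjusted p = 0.00140) and at least 2.00-fold with control supernatant (adjusted p = 0.00278). It entered the tests only through the 6 h groups: 1 KD array and no control array at 3 h was above background, so its calls support nothing about time. With normexp the KD value was 0.62. A second, dimmer probe of Rab15 did not show this, with -0.63 and 0.47 (adjusted p = 0.22 and 0.36). Rab25, an epithelial relative of Rab11a, was at -5.98 and -5.45 with KD and -6.03 and -6.40 with control supernatant at 6 h, and at -3.53 and -4.94 with KD and -5.96 and -4.25 with control supernatant at 3 h. It was above background on 3 of the 3 h arrays and on none at 6 h, and was not called (adjusted p = 0.139 with KD supernatant). Rab4a, of the fast recycling route, was at 2.58 and 2.70 with KD and 2.72 and 2.59 with control supernatant at 6 h, and at 2.43 and 2.35 with KD and 2.55 and 2.45 with control supernatant at 3 h, and Rab4b and Rab11b were not called either. Rab17, which serves transcytosis in epithelia, was above background on 1 array.

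Some of the Rabs grouped here as late endosome and lysosome were higher at 6 h and none of this group was called lower. The counts depend on which group a Rab was placed in. Rab12, called lower with KD supernatant, and Rab34, called higher in both, also have roles in degradation or lysosomes but are counted in other groups below. Of 7 tested, 3 were called higher with KD supernatant, against 17.7% of all features. With control supernatant 4 were, Rab38 among them, against 16.3%. All 7 estimates were above 0 in each supernatant, where 39.3% of all features were with KD and 41.7% with control supernatant. The 7 include Rab38, which entered only through its control arrays at 6 h and was above background in no other group. Its sign supports nothing about time, so the count of 7 is not read as a trait of these Rabs. The lowest estimates were close to 0, at 0.015 with KD and 0.004 with control supernatant. Only 5 were above 0 when arrays were scaled by their median, and 6 with control supernatant in the authors' deposited log2 values. Rab24, linked to autophagy, was at 3.89 and 3.94 with KD and 3.74 and 3.82 with control supernatant at 6 h, and at 3.11 and 3.18 with KD and 3.14 and 3.20 with control supernatant at 3 h. It rose by 0.77 ± 0.067 and 0.61 ± 0.067 (adjusted p = 0.000593 and 0.00119). Rab7b, which works between late endosomes and the Golgi, was at 1.98 and 1.95 with KD and 1.93 and 1.91 with control supernatant at 6 h, and at 1.23 and 1.19 with KD and 1.47 and 1.23 with control supernatant at 3 h. It rose by 0.75 ± 0.090 and 0.57 ± 0.090, while Rab7 itself, the main Rab of late endosomes, was at 2.80 and 2.88 with KD and 2.78 and 2.64 with control supernatant at 6 h, and at 2.80 and 2.73 with KD and 2.48 and 2.79 with control supernatant at 3 h. Rab7 overlapped between the times (0.08 ± 0.12 with each supernatant). Rab32, of lysosome-related organelles, was at 3.29 and 3.34 with KD and 2.25 and 3.05 with control supernatant at 6 h, and at 2.33 and 2.38 with KD and 2.28 and 2.24 with control supernatant at 3 h. It rose by 0.97 ± 0.24 with KD supernatant (adjusted p = 0.0249), and the control arrays at 6 h lay 0.80 apart. Rab29, a relative of Rab32, was at -2.54 and -2.45 with KD and -2.51 and -1.99 with control supernatant at 6 h, and at -2.66 and -3.17 with KD and -3.27 and -2.94 with control supernatant at 3 h. It rose by 0.85 ± 0.24 with control supernatant (adjusted p = 0.0378), a value that includes a spot in a bright patch. With such patches masked it was 0.59 (adjusted p = 0.132). Its second probe rose with both, by 0.68 with KD and 0.74 with control supernatant. Rab38 entered only through the control arrays at 6 h, so its call with control supernatant (adjusted p = 0.0176) supports nothing about time. It was at least 3.97-fold higher there, on arrays that lay 2.19 apart, and at least 1.86-fold higher without the second one, whose spot lay in a bright patch, a comparison chosen after the values were seen. Rab9 was not called.

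Rabs of the ER and Golgi moved both ways, with 4 lower and 2 higher of 12 in each supernatant, where 22.2% and 17.7% of all features were so with KD and 23.6% and 16.3% with control supernatant. Rab1a, which carries cargo from the ER to the Golgi, was at 5.02 and 5.04 with KD and 5.01 and 4.90 with control supernatant at 6 h, and at 5.68 and 5.67 with KD and 5.54 and 5.57 with control supernatant at 3 h. It fell by 0.64 ± 0.065 and 0.60 ± 0.065 (adjusted p = 0.000952 and 0.00107). Rab33b, a Golgi Rab that also binds an autophagy factor, was at 2.17 and 2.18 with KD and 2.22 and 2.22 with control supernatant at 6 h, and at 3.06 and 2.88 with KD and 3.17 and 3.09 with control supernatant at 3 h. Both genes had all 6 h arrays below all 3 h arrays, and Rab33b fell by 0.80 ± 0.079 and 0.91 ± 0.079. Rab6a, of retrograde Golgi traffic, was at 4.25 and 4.31 with KD and 4.15 and 4.08 with control supernatant at 6 h, and at 4.62 and 4.61 with KD and 4.67 and 4.59 with control supernatant at 3 h. It fell by 0.34 ± 0.065 and 0.51 ± 0.065. Rab18, the lipid droplet Rab, was at 4.03 and 4.16 with KD and 3.86 and 4.01 with control supernatant at 6 h, and at 4.49 and 4.44 with KD and 4.41 and 4.42 with control supernatant at 3 h. It fell by 0.37 ± 0.081 and 0.48 ± 0.081, again with no overlap between the times.

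The 2 Golgi Rabs that rose were Rab34 and Rab30. Rab34, which positions lysosomes and acts in cilium formation, was at 5.13 and 5.10 with KD and 5.03 and 5.03 with control supernatant at 6 h, and at 4.64 and 4.61 with KD and 4.67 and 4.64 with control supernatant at 3 h. It rose by 0.49 ± 0.057 and 0.37 ± 0.057, and Rab30 by 0.48 ± 0.092 and 0.43 ± 0.092. Rab6b, the neuron-enriched relative of Rab6a, was at 2.21 and 2.18 with KD and 2.03 and 1.85 with control supernatant at 6 h, and at 1.99 and 2.06 with KD and 2.16 and 2.01 with control supernatant at 3 h. It was higher on the KD arrays at 6 h alone, and neither that difference (0.25 ± 0.090, adjusted p = 0.223) nor its change with time was called. Rab1b, Rab2a, Rab2b, Rab33a and Rab43 were not called, with changes between -0.22 and 0.32. Rab1a and Rab6a were thus called lower where their paralogs Rab1b and Rab6b did not pass, although the difference between paralogs was not tested.

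Among the remaining members Rab42 gave the widest change. This little-studied Rab was at -1.56 and -1.74 with KD and -1.23 and -1.35 with control supernatant at 6 h, and at -3.51 and -3.86 with KD and -3.42 and -3.41 with control supernatant at 3 h. It rose by 2.04 ± 0.13 with KD and 2.13 ± 0.13 with control supernatant (adjusted p = 0.000258 and 0.000219), and by 1.17 and 1.37 with normexp. Rab39b, a neuronal and autophagy Rab, was at -1.41 and -1.33 with KD and -1.37 and -1.36 with control supernatant at 6 h, and at -2.19 and -2.26 with KD and -2.25 and -2.25 with control supernatant at 3 h. It rose by 0.85 ± 0.063 and 0.88 ± 0.063, with KD and control arrays nearly equal at each time. Rab40c, the relative of Rab40b, was at 3.05 and 3.14 with KD and 2.93 and 2.96 with control supernatant at 6 h, and at 3.56 and 3.51 with KD and 3.50 and 3.51 with control supernatant at 3 h. It fell by 0.44 ± 0.063 and 0.56 ± 0.063. Rab28, a Rab of the photoreceptor cilium, was at 1.43 and 1.39 with KD and 1.30 and 1.34 with control supernatant at 6 h, and at 1.77 and 1.74 with KD and 1.66 and 1.79 with control supernatant at 3 h. It fell by 0.34 ± 0.070 and 0.41 ± 0.070. Rab12, which sends transferrin receptor to degradation, was at -3.88 and -3.88 with KD and -3.36 and -3.52 with control supernatant at 6 h, and at -3.37 and -3.21 with KD and -3.50 and -3.11 with control supernatant at 3 h, and was called with KD supernatant alone (-0.59 ± 0.14, adjusted p = 0.0224). Rab40b and the Hedgehog pathway Rab Rab23 were not called, and Rab19 and Rab39 were above background on 1 array each.

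Genes around the Rab cycle also differed between the times. Their counts stand beside 17.7% higher and 22.2% lower of all features with KD supernatant, and 16.3% and 23.6% with control supernatant. Rabggta, a subunit of the enzyme that attaches the lipid anchor of Rab proteins, rose by 1.08 ± 0.085 with KD and 0.91 ± 0.085 with control supernatant, while its partner subunit Rabggtb fell by 0.36 ± 0.064 and 0.44 ± 0.064. Of the 11 tested genes of this list 1 rose in each supernatant, and 4 fell with KD and 3 with control supernatant. Among 36 exchange factors 10 rose and 12 fell in each supernatant. Rabgef1, an exchange factor of Rab5 proteins, fell by 1.01 ± 0.081 and 1.08 ± 0.081, and Rin1 rose by 1.40 ± 0.076 and 0.91 ± 0.076, so that exchange factors of the same Rabs moved in opposite directions. Of 34 GAPs, 5 rose and 11 fell with KD supernatant, and 5 rose and 12 fell with control supernatant. Tbc1d4, the GAP of the GLUT4 pathway, rose by 0.87 ± 0.056 and 0.70 ± 0.056, and Tbc1d15, a GAP of Rab7, fell by 1.12 ± 0.082 and 1.06 ± 0.082. Among 37 effectors 5 rose and 13 fell with KD supernatant, and 6 rose and 17 fell with control supernatant. Eea1, the Rab5 effector that tethers early endosomes, was at 0.95 and 0.84 with KD and 0.82 and 0.75 with control supernatant at 6 h, and at 2.07 and 2.10 with KD and 2.13 and 1.92 with control supernatant at 3 h. Eea1 fell by 1.19 ± 0.092 and 1.24 ± 0.092, in the same direction as Rab5a. Of 9 GLUT4 vesicle genes, 3 rose and 1 fell with KD supernatant and 2 rose and 1 fell with control supernatant, with Slc2a1, the gene of the glucose transporter GLUT1, higher by 0.51 ± 0.072 and 0.42 ± 0.072.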

How the data were processed

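RNA of 8 samples (0.1 ug each, dye Cy3, per the labels' protocols) was measured on 8 one-colour arrays. The submitters' processing notes name Agilent's Feature Extraction, version 10.7.3.1. The deposited scanner files hold for each spot the processed intensity that this software made on a linear scale, with spot and background intensities and quality flags, per the file headers. A deposited table of log2 values equalled the log2 processed intensity with 1 shift per array, and served as an alternative. Each array had 59305 spots other than controls, none saturated.

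Log2 intensities were scaled to the 75th percentile of each array. Of 55681 probes, 27235 were named by RefSeq transcript and 20 by symbol. Probes well above background on both arrays of a group entered, and the brightest probe stood for each gene, leaving 25799 genes and unnamed probes. Group means were fitted with limma 3.58.1 (R 4.3.3) on all 8 arrays, with Benjamini-Hochberg adjustment over all of them and a threshold of 0.05. The number of arrays limits the precision. Where no array of a group was above background, "at least" sets the brighter group's mean against a ceiling for the dim one: per array, its own signal or the lowest signal well above background, whichever was larger. On simulated 6 h data over 25799 genes, 86 of 100 4-fold and 61 of 100 2-fold changes were recovered.

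Members and lists were chosen with earlier results of these data known. Every member is named. Values by array are given for members called in any comparison, the 5 smallest p in each supernatant comparison, the 5 widest changes in each time comparison and 16 well known Rabs. Up to 4 genes per list and comparison were eligible. The labels do not say whether replicate numbers pair the arrays, and the main fit used no replicate block. Deviations of same-numbered arrays correlated at -0.05 to 0.09, which cannot show how the samples were prepared. Promoters are RefSeq's, GRCm38.p6. Figures used Python 3.11.15 and matplotlib 3.10.9.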

Additional observations from a re-analysis of the deposited data

How the results depend on the processing

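Counts of calls depended on the processing. None of the 60 called values of Rab genes changed sign in any alternative run, while 100 of the 246 values that were not called did in at least 1, among them those of Rab5b, Rab3b, Rab7 and Rab8a. Each pair gives Rab genes, then all features. At 3 h (1 and 63 called, KD against control supernatant) the counts were 0 and 25 with array-median scaling, 0 and 0 without scaling, without the background filter, with only the 3 h arrays and with a replicate block, and 0 to 0 and 0 to 35 without 1 array. All features gave 128 with normexp, 193 when every array had to be above background, 310 with array weights and 289 with an intensity trend. At 6 h (3 and 593) they were 0 and 96 without scaling, 0 and 18 without the filter, 0 and 0 with only the 6 h arrays, 0 and 223 with a replicate block, 1 and 193 with array weights, and 0 to 6 and 144 to 1955 without 1 array. All features gave 1075 with array-median scaling and 1199 with a trend. For the average (3 and 807) they were 5 and 1220 with array-median scaling, 0 and 150 without scaling, 0 and 76 without the filter, 8 and 1449 with a trend, and 1 to 6 and 109 to 2001 without 1 array. The strict filter gave 5 Rab genes, and the block 510 features. The difference of effects (0 and 0) gave 1 feature with array-median scaling, 11 without scaling, 11 with quantile normalization, 5 with normexp, 4 with the strict filter, 6 with a trend, and 0 to 1 and 0 to 294 without 1 array.

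For 6 h against 3 h with KD supernatant (26 and 10300) the counts were 13 and 5498 without scaling and 16 to 28 and 6704 to 11858 without 1 array, and 16 Rab genes without the filter. With control supernatant (27 and 10293) they were 12 and 5739 without scaling, and 19 to 28 and 7196 to 10364 without 1 array. Whether replicate numbers pair the arrays is not in the labels. With a replicate block the time comparisons called 25 Rab genes with KD and 27 with control supernatant. In that fit the 6 h adjusted p between supernatants was 0.0564 for Rab3a, 0.0545 for Rab27b and 0.0591 for Rab20. The causes of these differences were not tested, and the fits that leave some arrays out also hold fewer arrays. Signal over background limits Rab15, Rab25, Rab37 and Rab38, and the 6 members not tested.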
